A study of Homo sapiens with 22 samples.

Results

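The comparison described here sets HEK293 cells that carried dCas9-VPRP with a non-targeting guide against HEK293 cells without the fusion, called WT. It rests on 4 poly-A RNA-seq libraries, 2 per group and described as biological replicates, of 12 RNA libraries in 6 groups. HEK293 is an established human embryonic kidney line. dCas9 is a Cas9 that binds DNA at a guide's target without cutting it, VPR is a chain of the activation domains VP64, p65 and Rta, and VPRP adds p300 to that chain. The 2 VPRP non-target libraries came from cells induced with doxycycline for 48 h and sorted as double positive for GFP and BFP. The 2 WT libraries came from cells labelled as untreated that held an sgRNA alone and were sorted for BFP. Which guide the WT cells held, whether they were given doxycycline, and whether the fusion line was 1 clone is stated in none of the labels, so that the fusion, the induction, the GFP gate and the guide cannot be told apart. Each sample was 1000000 sorted cells. The other 4 groups, all with an sgRNA to HBB, carried dCas9 fused to VPR, to p300, to the catalytic mutant p300 D1399Y or to VPRP, and are used below for values side by side.

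p300, encoded by EP300, is an acetyltransferase that is recruited to promoters and enhancers by transcription factors and acetylates histones, H3K27 among them. Activation domains such as those of VPR recruit Mediator, chromatin remodellers and p300 itself. Targeted activators are meant to act where the guide places them. A non-targeting guide is meant to have no target in the genome, though its sequence is not given in the sources used here. The comparison describes the RNA of cells with the fusion and such a guide, together with the induction and the GFP gate named above.

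Genes that encode parts of the construct were looked at first. EP300 was at 110 and 103 CPM (counts per 1000000 counts of the library, scaled by TMM library factors) in the WT libraries and at 1165 and 1179 CPM in the VPRP non-target libraries, an 11.0-fold difference (log2 fold change 3.46, SE 0.09, edgeR adjusted p = 6.4e-26). The groups were far apart. Reads of the construct's p300 part and of the cell's own EP300 are counted together, so the part of each in the difference was not tested. Elsewhere the mean of EP300 was 98.7 CPM with VPR, 195 CPM with p300 D1399Y, 1124 CPM with p300 and 375 CPM where VPRP had the HBB guide. RELA, which encodes the p65 subunit that VPR takes a piece of, was at 116 and 119 CPM in WT and at 106 and 119 CPM with VPRP non-target, and did not pass the test (log2 fold change -0.06, SE 0.08, adjusted p = 0.50). HBB, the beta-globin gene that the other guide targets, had 0 counts in all 4 libraries, against a mean of 1556 CPM with VPRP and the HBB guide.

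Across the transcriptome 16694 of 48162 gene IDs had enough counts to be tested, and 9972 of them (59.7%) passed an adjusted p of 0.05. VPRP non-target was higher than WT for 5207 genes (31.2%) and lower for 4765 (28.5%). At a change of at least 2-fold the 2 directions were unequal: 2711 genes (16.2%) were higher and 820 (4.91%) lower. The libraries of the groups did not overlap for 13397 genes (80.3%). With library totals alone as the scale, in place of TMM, 6359 genes were higher and 3549 lower, and the median log2 fold change over all genes tested moved from 0.04 to 0.17; the shares of calls in each direction depend on that choice. Every share of called list members given below stands against these backgrounds. The background also varies with a gene's level, as given below: 37.1% were lower between 10 and 100 CPM and 51.7% between 100 and 1000 CPM. The lists were not matched for level.

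**Figure D1:**
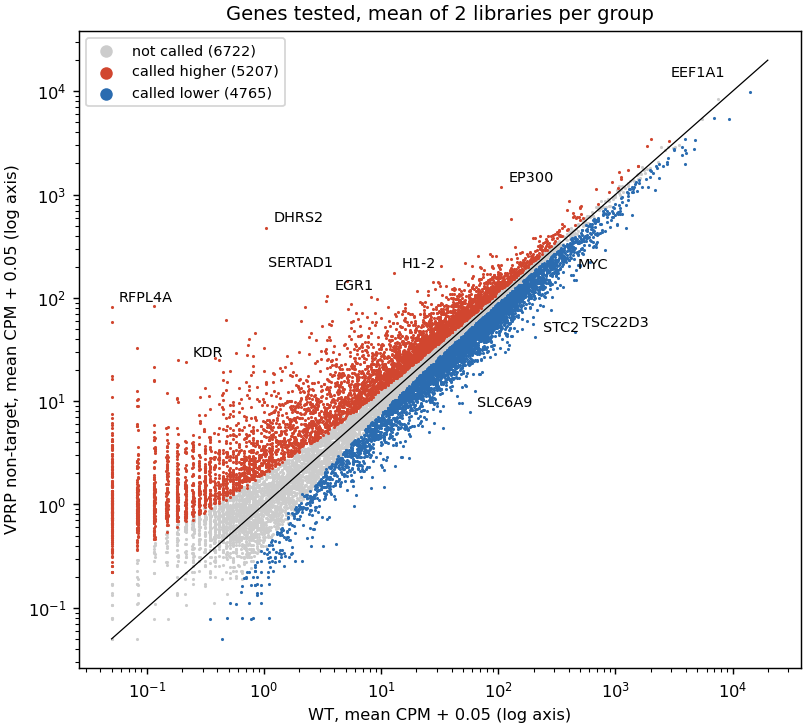
Mean CPM plus 0.05 in WT (x, log axis) against VPRP non-target (y, log axis) for the genes tested, with genes called higher in red, called lower in blue and not called in grey; the line marks equal levels. The column of red points at the left edge holds genes with 0 counts in WT, and DHRS2 lies far above the line at 478 CPM.

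The direction of the calls went with a gene's level. Among the 2504 tested genes with a mean under 1 CPM over the 12 libraries, 38.2% were higher and 3.87% lower, with a median log2 fold change of 1.06. Between 10 and 100 CPM, 29.5% of 7805 genes were higher and 37.1% lower. Between 100 and 1000 CPM, 19.1% of 2063 genes were higher and 51.7% lower, with a median of -0.18. Of 102 genes at 1000 CPM or more, 12.7% were higher and 50.0% lower. By type of gene, 14.4% of 13714 protein-coding genes, 29.4% of 1056 long non-coding RNA genes and 22% of 600 pseudogenes were at least 2-fold higher. In that order, 614, 76 and 28 of these genes were at least 2-fold lower. A low gene can pass the filter through the fusion libraries alone. The lowest class and the split by type are therefore descriptions and not results about low genes or types of gene.

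More genes had a count at all. Calculated for a common depth of 14894558 reads, 20220 and 20838 gene IDs were expected to have a count in the WT libraries and 24636 and 24366 in the VPRP non-target libraries. The libraries of the other 4 groups ranged from 20735 to 23082, the lowest of them under the higher WT library. Protein-coding genes with a count numbered 14647 and 14955 in WT and 16358 and 16306 with VPRP non-target, at full depth. Among 370 olfactory receptor genes, which non-olfactory cells keep silent, 29 and 31 had a count in WT and 65 and 54 with VPRP non-target, with 40 and 52 against 123 and 107 reads in all.

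**Figure D2:**
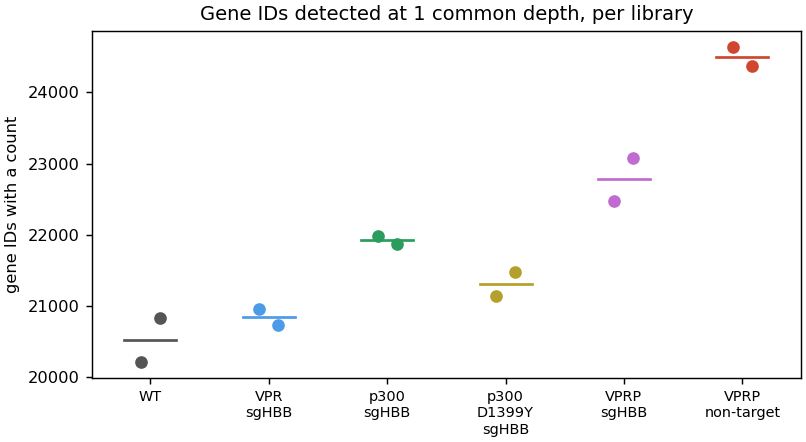
Number of gene IDs expected to have at least 1 count at a common depth (y), calculated for each library (points) of the 6 groups (x), with bars at the group means. Both VPRP non-target libraries, at 24636 and 24366, lie above all other libraries, and both WT libraries, at 20220 and 20838, are among the lowest.

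Genes that went from silence to RNA were counted by a fixed rule: 0 counts in both WT libraries and at least 10 in each VPRP non-target library. Of 25344 gene IDs with 0 counts in WT, 157 (0.619%) met it. The mirror rule, 0 counts with VPRP non-target and at least 10 in each WT library, was met by 0 of 20610. Inside a group, 15 genes in WT and 19 in VPRP non-target had 0 counts in 1 library and at least 10 in the other. The count rises to 266 without WT library 1, to 325 without WT library 2 and to 249 without VPRP non-target library 1, since fewer libraries then have to meet the rule. The genes switched on were mostly low: the median was 1.12 CPM, 93 reached 1 CPM and 10 reached 5 CPM. Of the 157, 78 were protein-coding, 20 long non-coding RNAs and 22 pseudogenes, and 37 had no RefSeq match. All 150 of these genes that passed the filter were called, which the rule itself all but fixes.

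The highest of them was RFPL4A, a RING finger gene of the RFPL family that is expressed in oocytes and early embryos. It had 0 counts in WT and 1343 and 1459 in the VPRP non-target libraries, or 81.6 and 80.8 CPM, at least 821-fold higher against a floor of 3 counts over the WT group. FRG2B followed at 54.5 and 62.1 CPM and its copy FRG2 at 18.5 and 16.7 CPM, at least 590-fold and at least 178-fold higher. FRG2 is named for its place near the subtelomeric region of chromosome 4 that is linked to facioscapulohumeral muscular dystrophy. The third copy, FRG2C, which was added after its values were seen, had 1 count in each WT library and 83.7 and 84.8 CPM with VPRP non-target. The copies are so alike that reads may be shared between them. Promoters of RFPL4A and 2 of the FRG2 copies are shown because these genes were at 0 counts, or 1 count per library, in WT. The stretches below are the 250 bases before the annotated start, from RefSeq on GRCh38.p14, while the counts were made on hg19. Capitals mark TATAAA and CCAAT or their reverse complements TTTATA and ATTGG, the TATA box and CCAAT box that general transcription factors and NF-Y bind.
FRG2, chr4:190027257-190027506, minus strand: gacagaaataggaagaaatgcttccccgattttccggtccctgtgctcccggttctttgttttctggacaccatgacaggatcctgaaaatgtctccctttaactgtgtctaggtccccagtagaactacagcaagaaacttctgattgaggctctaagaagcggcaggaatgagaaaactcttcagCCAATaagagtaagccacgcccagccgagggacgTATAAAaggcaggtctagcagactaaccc
FRG2C, chr3:75664078-75664327, plus strand: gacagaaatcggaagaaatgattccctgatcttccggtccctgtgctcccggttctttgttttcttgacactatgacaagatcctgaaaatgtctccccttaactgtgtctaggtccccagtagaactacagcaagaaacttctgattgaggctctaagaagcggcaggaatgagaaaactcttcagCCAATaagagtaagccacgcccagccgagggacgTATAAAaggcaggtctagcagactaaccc
RFPL4A, chr19:55758847-55759096, plus strand: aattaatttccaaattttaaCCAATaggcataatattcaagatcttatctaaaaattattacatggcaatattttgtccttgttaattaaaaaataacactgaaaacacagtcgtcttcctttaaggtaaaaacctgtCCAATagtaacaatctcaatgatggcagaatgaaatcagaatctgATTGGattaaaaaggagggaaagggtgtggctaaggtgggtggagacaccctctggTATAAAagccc

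FRG2 and FRG2B, on chromosome 10, had identical promoters over the 249 bases that align at an offset of 1 base. FRG2 and FRG2C differed at 8 of 250 bases, 96.8% identity. FRG2 and FRG2C each held TATAAA from 29 to 24 bases before the start and CCAAT from 63 to 59. RFPL4A held TATAAA from 11 to 6 bases before the start. TATAAA, on either strand, was found in 11.1% and CCAAT in 33.0% of 27305 promoters of this length. A promoter was found for 68 of the 121 switched-on genes with a symbol, under 80%, so a share over these genes would be void and is not given.

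The next genes with a symbol, by level, were these; gene IDs without a symbol are not named. PRR20G, a proline-rich protein gene, was at 16.6 and 15.8 CPM. ALPG, a placental-type alkaline phosphatase of germ cells, was at 5.59 and 5.98 CPM. FGF23, the bone hormone that lowers blood phosphate, was at 4.37 and 5.26 CPM, and SLC34A2, a sodium-phosphate cotransporter of lung and gut, at 4.49 and 3.71 CPM. GOLGA8M, of a golgin family with near-identical copies, was at 4.49 and 3.93 CPM, and the non-coding RNAs LINC01721 and LINC01447 were at 6.68 and 5.43 and at 5.04 and 4.32 CPM. All had 0 counts in both WT libraries. Families with several switched-on members were GOLGA6 and GOLGA8 with 6, VCX, a testis-expressed family on the X and Y chromosomes, with 4, RFPL with 4 and TRIM with 4. RFPL4AP1, TRIM53CP and TRIM43CP among them are pseudogenes. Symbols that begin with SLC numbered 5 and with LINC 12. These families were looked up after the genes were known. Family sizes were not counted, so nothing is read from these numbers beside the 0.619% of all gene IDs at 0 counts in WT.

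Among the 157 genes, 78 had 0 counts with VPR, 65 with p300 D1399Y, 10 with p300 and 4 with VPRP and the HBB guide. Their median levels were 0.0317, 0.0289, 0.210 and 0.477 CPM in that order, against 1.12 CPM with VPRP non-target. The genes were picked for being high in VPRP non-target, so a lower level elsewhere is in part set by the choice. In the fit, VPRP non-target was higher than VPRP with the HBB guide for 67 of them and lower for 1, beside 14.4% of all genes tested higher and 14.9% lower; the rule used these same VPRP non-target counts, so nothing is read from that split. EP300 reads were also higher in VPRP non-target, by 1.64 on the log2 scale (adjusted p = 2.7e-17); the part of that difference, or of the guide, in the levels of these genes was not tested. By the same rule against the same WT libraries, 7 genes were on with VPR, 19 with p300 D1399Y, 40 with p300 and 88 with VPRP and the HBB guide.

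**Figure D3:**
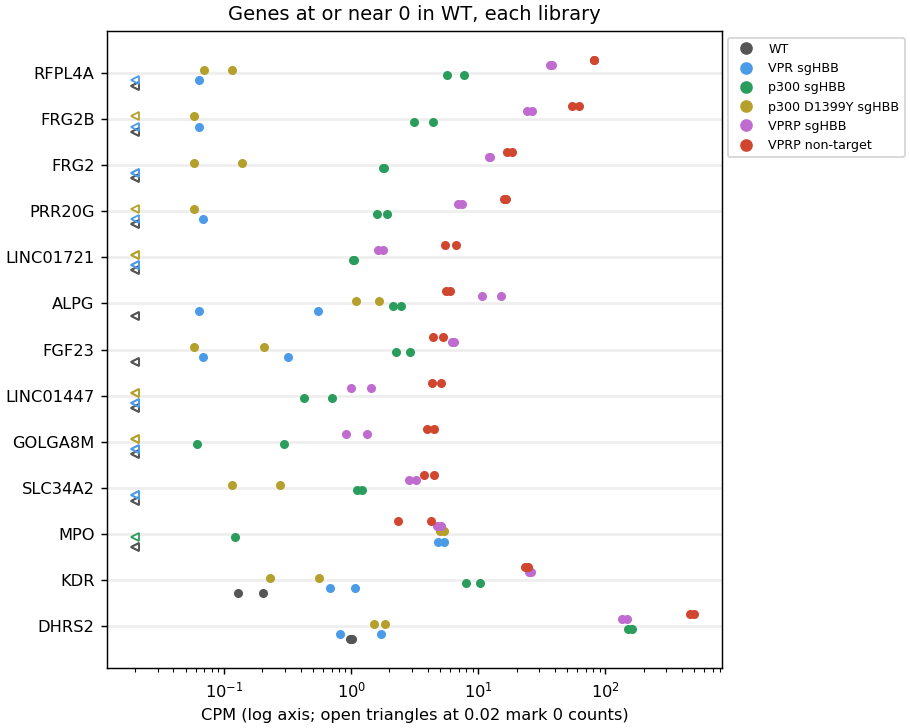
CPM on a log axis in each of the 12 libraries for the 10 highest genes with a symbol and 0 counts in WT, and for MPO, KDR and DHRS2, with open triangles at 0.02 for libraries at 0 counts. For RFPL4A, FRG2B and FRG2 the VPRP non-target libraries are highest, at 81.6 and 80.8, 54.5 and 62.1, and 18.5 and 16.7 CPM. ALPG is higher with VPRP and the HBB guide. The points of FGF23 also lie higher there, but that difference did not pass the edgeR test (adjusted p = 0.30).

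MPO, the myeloperoxidase of neutrophil granules, also reached a mean of 5 CPM with VPR and with p300 D1399Y. It had 0 counts in WT, 4.25 and 2.33 CPM with VPRP non-target, and means of 5.09 CPM with VPR, 5.18 CPM with p300 D1399Y, 0.0612 CPM with p300 and 4.92 CPM where VPRP had the HBB guide. VPRP non-target and VPRP with the HBB guide did not differ beyond their spread (log2 difference -0.59, adjusted p = 0.11). Of 17 myeloid granule genes 8 were tested and 7 were higher; 4 were higher when the filter or the libraries fitted were narrowed. S100A9, a neutrophil calcium-binding protein, was at 0.668 and 0.665 CPM with VPRP non-target. Its means were 0.0317 CPM with VPR, 0.929 CPM with p300 D1399Y, 0.0294 CPM with p300 and 0.0276 CPM where VPRP had the HBB guide. These members passed the filter through fusion libraries, so their count describes and does not test the list.

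Early-embryo and germline genes made up another group. Of 38 matched genes of the cleavage stage, many of them targets of DUX4, a transcription factor active when the embryonic genome is switched on, 13 were tested, 12 were higher and 0 lower. The median log2 fold change of those tested was 8.18, or 4.77 with genes at 0 counts set at their limit. That list holds RFPL4A, the FRG2 genes and SLC34A2 named above. It is not an embryo-wide pattern: LEUTX had 3 reads, ZSCAN4 6 and the MBD3L genes listed had 0 in the VPRP non-target libraries together. Of 39 matched cancer-testis antigens, genes normally active in testis and many of them X-linked, 11 were tested, 10 were higher and 0 lower. SSX1 went from 1 WT read to 1.94 and 2.44 CPM, and MAGEB1 from 0 to 0.85 and 1.61 CPM. Of 32 germline genes 18 were tested, 7 were higher and 1 lower. PRDM9, the methyltransferase that places meiotic crossovers, was at 0.0672 and 0.194 CPM in WT and at 2.85 and 2.94 CPM with VPRP non-target, while SYCP2, of the synaptonemal complex, went from 0.336 and 1.29 CPM to 0.182 and 0.0554 CPM, a call that was lost without WT library 2 (adjusted p = 0.29) or VPRP non-target library 2 (adjusted p = 0.073). Members of these lists that were tested had passed through the group where they were high.

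Among genes that WT cells also express, DHRS2 stood out. It encodes a short-chain dehydrogenase that is known to respond to inhibitors of histone deacetylases. It had 15 reads in each WT library, or 1.01 and 0.970 CPM, and 461 and 494 CPM with VPRP non-target, 480-fold higher (log2 fold change 8.91, SE 0.14, edgeR adjusted p = 1.5e-32). Its means were 1.27 CPM with VPR, 1.69 CPM with p300 D1399Y, 156 CPM with p300 and 141 CPM where VPRP had the HBB guide. Its promoter is shown with those of GADD45B and H2BC5, 2 of the largest rises described next. These 3 were picked for display after their values were seen, and the motifs in them, marked as above, are a description.
DHRS2, chr14:23629865-23630114, plus strand: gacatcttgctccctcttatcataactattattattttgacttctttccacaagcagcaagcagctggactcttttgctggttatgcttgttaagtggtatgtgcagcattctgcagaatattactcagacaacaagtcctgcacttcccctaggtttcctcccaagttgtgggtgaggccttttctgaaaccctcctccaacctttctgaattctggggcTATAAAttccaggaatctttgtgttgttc
GADD45B, chr19:2475877-2476126, plus strand: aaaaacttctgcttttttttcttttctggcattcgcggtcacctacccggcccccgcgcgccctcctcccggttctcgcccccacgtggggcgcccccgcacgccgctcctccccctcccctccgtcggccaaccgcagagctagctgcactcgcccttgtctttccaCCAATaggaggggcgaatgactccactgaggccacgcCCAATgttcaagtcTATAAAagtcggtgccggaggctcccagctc
H2BC5, chr6:26157871-26158120, plus strand: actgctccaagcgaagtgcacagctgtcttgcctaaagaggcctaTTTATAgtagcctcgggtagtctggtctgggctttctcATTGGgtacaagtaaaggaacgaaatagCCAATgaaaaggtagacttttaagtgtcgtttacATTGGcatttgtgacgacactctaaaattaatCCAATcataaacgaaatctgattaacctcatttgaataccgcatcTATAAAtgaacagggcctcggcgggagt

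The largest rises among genes at 5 CPM or more in both groups were led by SERTAD1, a transcriptional coregulator of the cell cycle. It was at 6.18 and 4.01 CPM in WT and at 149 and 142 CPM with VPRP non-target, 28.7-fold higher (log2 fold change 4.84, SE 0.13, adjusted p = 1.2e-25). HAP1, a trafficking protein that binds huntingtin, rose 15.9-fold from 5.71 and 5.17 to 87.6 and 85.3 CPM. GADD45B, a stress-induced MAP kinase regulator, rose 15.1-fold from 5.04 and 5.24 to 79.9 and 76.0 CPM. The linker histone H1-2 rose 13.6-fold, and TENT5C, a poly(A) polymerase, 12.4-fold. The core histone H2BC5 rose 11.8-fold, HSPA2, a testis-enriched HSP70, 10.6-fold, the docking protein DOK4 10.6-fold and the placental growth factor PGF 10.6-fold. EP300 itself ranked among these 10. In each of these genes the libraries of the groups were far apart.

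The largest falls, among genes at 5 CPM or more in both groups, were smaller in size. TSC22D3, the glucocorticoid-induced leucine zipper, fell from 460 and 448 CPM to 49.0 and 43.8 CPM, 9.78-fold lower (log2 fold change -3.29, SE 0.08, adjusted p = 1.5e-26). SLC6A9, a glycine transporter, fell from 54.4 and 59.3 to 7.84 and 7.65 CPM, 7.34-fold lower. LAMA4, a laminin chain, was 6.27-fold lower, and SLC7A11, the cystine transporter, 5.03-fold lower. SLC43A1, an amino acid transporter, was 5.01-fold lower, the secreted glycoprotein STC2 4.98-fold and HRK, a BH3-only apoptosis gene, 4.88-fold. The blood-group sialoglycoprotein GYPC, the antisense RNA ZNF503-AS2 and the glycosyltransferase B4GALNT4 were 4.62-fold, 4.03-fold and 4.01-fold lower. Strand use in counting is not given in the sources used here, so the antisense RNA may share reads with its partner.

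**Figure D4:**
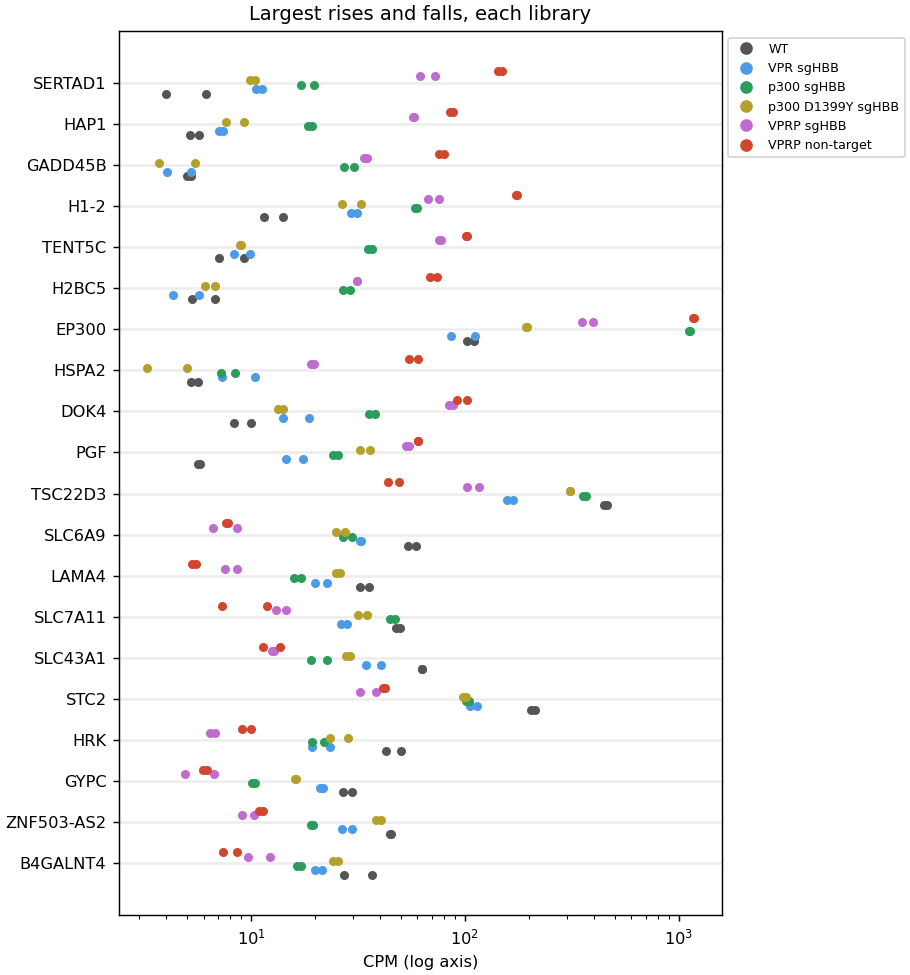
CPM on a log axis in each library for the 10 largest rises (upper rows) and 10 largest falls (lower rows) among genes with a mean of at least 5 CPM in WT and in VPRP non-target. SERTAD1 is highest in the 2 VPRP non-target libraries at 149 and 142 CPM, while TSC22D3 is lowest there at 49.0 and 43.8 CPM.

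Canonical histone genes were nearly all higher among those tested. They are made in S phase and normally end in a stem loop and not in a poly(A) tail, so poly-A libraries read the polyadenylated part. Of 29 listed genes 16 matched and 15 were tested; 14 were higher, all by at least 2-fold, and 0 lower, with a median log2 fold change of 2.89 against 0.04 over all genes. H1-2 went from 11.5 and 14.2 to 176 and 173 CPM, H2BC5 from 6.79 and 5.30 to 74.3 and 69.0 CPM, and H3C4 from 2 reads in WT to 3.16 and 2.99 CPM. H1-3 had 0 counts in WT and 1.70 and 1.94 CPM with VPRP non-target. Members this low in WT could pass the filter through the fusion libraries alone, so the count describes and does not test the list. The S phase list itself moved the other way, as given below. Copies of these genes are near identical in places. Of the 14 tested members with a RefSeq promoter 10 (71.4%) held TATAAA and 13 (92.9%) CCAAT, a known feature of histone promoters; H2BC5, printed above, held TATAAA from 28 to 23 bases before the start.

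Immediate early genes, which growth and stress signals switch on within minutes, were mostly higher: 21 of 28 tested, with 5 lower and a median of 1.14. EGR1, a zinc finger factor, was at 3.43 CPM in both WT libraries and at 111 and 98.3 CPM with VPRP non-target, 30.5-fold higher. ARC, a synaptic immediate early gene, went from 1.28 and 2.78 to 62.4 and 58.2 CPM, 29.4-fold higher. MYC, which drives growth genes, fell 2.49-fold from 424 and 411 to 169 and 167 CPM, and KLF6 fell from 38.0 and 38.6 to 25.3 and 25.5 CPM. Genes that feed back on MAP kinase signalling, which acts upstream of EGR1, were higher for 7 of 16 and lower for 2, or 8 and 1 with library totals alone; DUSP5, a nuclear ERK phosphatase, went from 1.01 and 1.94 to 20.7 and 21.7 CPM, and SPRED1, an ERK inhibitor, fell from 16.1 and 15.5 to 11.1 and 9.75 CPM. CREB targets were higher for 10 of 15 and lower for 2; VGF, a neuropeptide precursor, was 18.1-fold higher. The lists share NR4A1, NR4A2, NR4A3 and FOS.

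Targets of the glucocorticoid receptor and of FOXO factors split: 10 of 17 were higher and 4 lower. SGK1, a kinase that glucocorticoids induce, was at 2.08 and 2.85 CPM in WT and at 46.5 and 45.5 CPM with VPRP non-target, 18.6-fold higher, and ERRFI1, an inhibitor of the EGF receptor, was 4.55-fold higher. TSC22D3, the deepest fall in the comparison among genes at 5 CPM or more, belongs to the same list, and ZBTB16, a zinc finger repressor, went from 1.95 and 2.59 to 1.15 and 0.831 CPM, a call that was lost without WT library 2 (adjusted p = 0.098) or VPRP non-target library 2 (adjusted p = 0.092).

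The integrated stress response, in which ATF4 raises amino acid synthesis and transport genes, was the most one-sided list in the lower direction. Of 25 tested genes 23 were lower, 11 of them by at least 2-fold, 1 was higher and the median was -0.80. SLC6A9 and STC2, described above, are members. NUPR1, a stress-induced chromatin protein, fell from 3.43 and 4.72 to 0.668 and 0.0554 CPM. DDIT3, the CHOP factor of prolonged stress, was the exception and rose from 4.30 and 2.91 to 11.4 and 11.1 CPM. With library totals alone as the scale 20 of the 25 were lower. Chaperones of the endoplasmic reticulum, listed together with the transcription factor XBP1, respond to a neighbouring branch of the stress network. This list went the other way: 11 of 18 were higher and 3 lower. MANF was 2.84-fold and SDF2L1 2.61-fold higher, and XBP1 1.42-fold and CANX 1.42-fold lower. Heat shock genes were higher for 7 of 15 and lower for 5, or 9 and 2 with library totals alone; HSPA1B rose 2.87-fold and HSF1, their activator, fell 1.33-fold.

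Genes of DNA replication were lower as a group: of 22 S phase genes 16 were lower, 1 higher and the median was -0.48. With library totals alone 15 were lower and 4 higher. CDT1, which licenses replication origins, fell from 505 and 488 to 211 and 197 CPM, and UNG, the uracil glycosylase, from 254 and 244 to 100.2 and 104 CPM. CCNE2, the G1 cyclin, went from 5.71 and 8.28 to 10.4 and 10.7 CPM, a call that was lost without WT library 1 (adjusted p = 0.21) or VPRP non-target library 2 (adjusted p = 0.052). Genes of G2 and M phase were even, 4 of 22 higher and 4 lower; the mitotic kinase BUB1 rose 1.57-fold and TOP2A, a topoisomerase, fell 1.61-fold. With library totals alone, 10 were higher and 4 lower. Among p53 targets 12 of 20 were higher and 2 lower, with GDF15 15.3-fold and PLK3 5.08-fold higher and MDM2, the p53 ligase, 1.5-fold lower.

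HOX genes, which record position along the body axis and are active in HEK293, were mostly lower. Of 35 tested 26 were lower, 12 of them by at least 2-fold, and 5 were higher, with a median of -0.83. HOXD9 was at 10.1 CPM in both WT libraries and at 1.94 and 2.55 CPM with VPRP non-target, 4.47-fold lower, and HOXA2 was 5.07-fold lower. HOXD1, next to the lower HOXD genes in its cluster, rose from 0.672 and 1.36 to 7.77 and 5.26 CPM. Other developmental transcription factors were divided, 17 of 58 higher and 15 lower. SNAI1, a repressor of E-cadherin, was 56.8-fold higher, at 0.941 and 0.647 CPM in WT and 44.6 and 46.2 CPM with VPRP non-target. FOXC1, a forkhead factor of mesoderm, fell 3.69-fold from 280 and 282 to 74.5 and 77.6 CPM.

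Among 16 acetyltransferases and their coactivators, EP300 included, 4 were higher and 8 lower, or 5 and 6 with library totals alone; CITED4, which binds p300, rose 2.83-fold, while KAT6B and KAT7 fell 2.39-fold and 2.16-fold. Of 18 histone deacetylases and sirtuins 5 were higher and 7 lower, which turned to 6 higher and 4 lower with library totals alone: SIRT4, a mitochondrial sirtuin, rose 7.84-fold and HDAC11 2.32-fold, and SIRT5 and HDAC6 fell 1.78-fold and 1.73-fold. Bromodomain genes, whose products read acetylated histones, were lower for 10 of 14 and higher for 1, with a median of -0.46; TAF1 fell 1.90-fold, BPTF 1.63-fold, and BRD2 was 1.13-fold higher (adjusted p = 0.033), a call that was lost without WT library 1 (adjusted p = 0.45), VPRP non-target library 1 (adjusted p = 0.19) or library 2 (adjusted p = 0.21), and with no filter (adjusted p = 0.18). Of 12 tested DNA methylation enzymes 3 were higher and 6 lower; the de novo enzymes went apart, with DNMT3B 1.53-fold higher and DNMT3A 2.04-fold lower. Of 13 tested NF-kB genes, to which p65 belongs, 5 were higher and 1 lower; the inhibitor NFKBIE rose 2.79-fold and RELB 2.54-fold, and NFKB1 fell 2.05-fold.

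**Figure D5:**
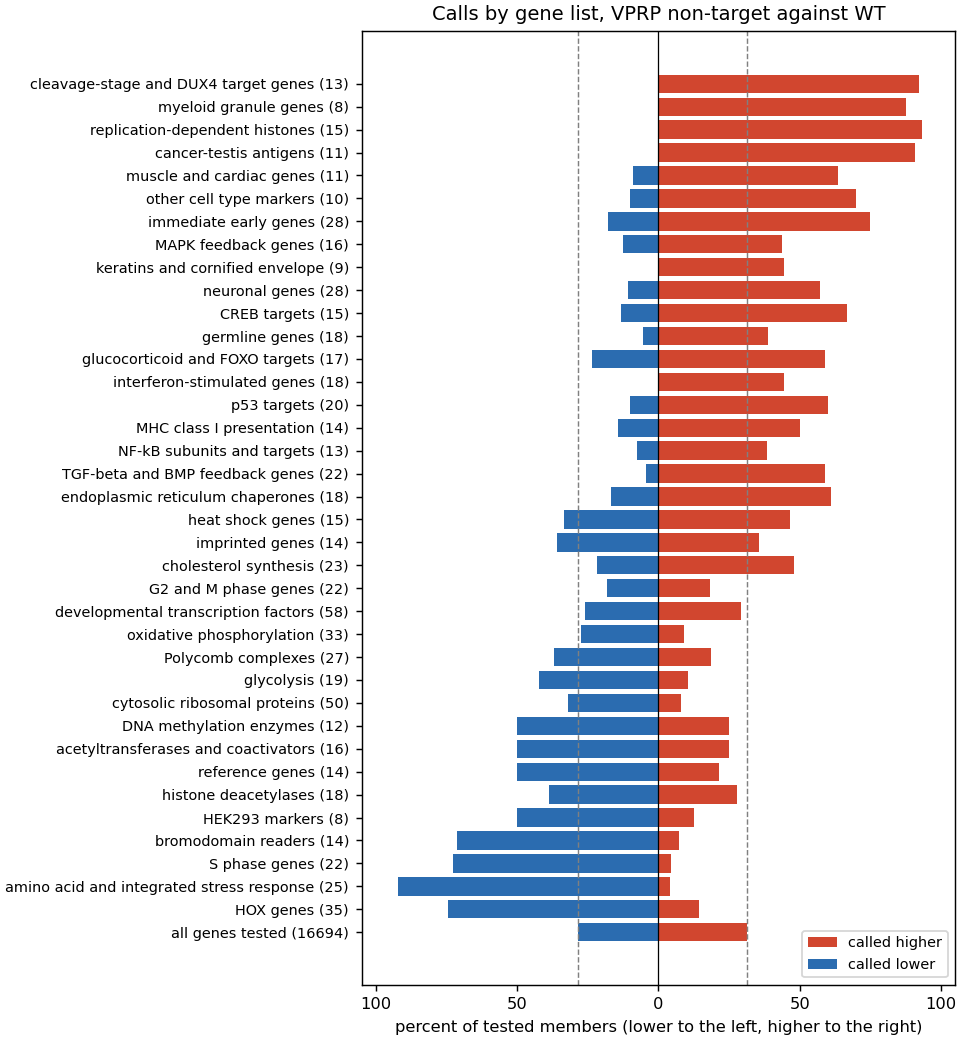
Percent of tested members called higher (red, right) and lower (blue, left) for each gene list with at least 8 tested members, with the number tested in brackets; dashed lines mark all genes tested, 31.2% higher and 28.5% lower. Histones, cleavage-stage genes and cancer-testis antigens reach furthest to the right, and HOX genes and the amino acid and integrated stress response list furthest to the left.

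Lists of genes of other tissues were counted next. A gene low in WT could pass the filter through the fusion libraries alone, so the counts of this paragraph describe the lists and do not test them. Of 28 tested neuronal genes 16 were higher and 3 lower, with a median of 0.77. TUBB3, a neuronal tubulin whose reads may be shared with the overlapping MC1R locus, had 0 counts in WT and 3.71 and 3.16 CPM with VPRP non-target; NPTX1, a neuronal pentraxin, fell from 87.2 and 94.3 to 60.1 and 62.6 CPM. Of 31 muscle genes 11 were tested, 7 were higher and 1 lower; the intermediate filament DES went from 0.0672 and 0.129 to 2.49 and 3.21 CPM, and ACTA2, a smooth muscle actin, went from 4.91 and 5.63 to 3.95 and 1.83 CPM, a call that was lost without VPRP non-target library 2 (adjusted p = 0.13). Of 10 globin genes 6 were tested; embryonic HBE1 rose 24.3-fold to 2.55 and 2.60 CPM and HBQ1 fell 1.89-fold. Markers of other cell types were measured as a check on the cells. Of 13 matched markers of blood, epithelium, fibroblasts and endothelium 10 were tested, 7 were higher and 1 lower, and their summed level was 29.8 and 28.9 CPM in WT and 90.5 and 90.1 CPM with VPRP non-target. The endothelial receptor KDR was at 0.202 and 0.129 CPM in WT and 23.2 and 24.4 CPM with VPRP non-target, 138-fold higher. CD3E, a T cell gene, had 1 read in WT and 2 with VPRP non-target, and PTPRC, a leukocyte gene, 0 and 7. The 8 matched HEK293 markers were all present, with a summed level of 584 and 593 CPM in WT and 371 and 358 CPM with VPRP non-target; VIM fell 2.94-fold, LIN28B 1.88-fold and KRT8 rose 1.79-fold. The part of other cells in these levels was not tested.

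At the top of the transcriptome the changes were modest in fold and large in reads. The greatest loss in CPM was in EEF1A1, a translation elongation factor, which fell from 14600 and 13775 to 9771 and 9973 CPM (log2 fold change -0.52, SE 0.08, adjusted p = 4.2e-07). The elongation factor EEF2, the RNA-binding protein HNRNPA1, the ribosomal proteins RPL3 and RPL4 and the actin ACTG1 followed and fell 1.72-fold, 2.01-fold, 1.68-fold, 1.59-fold and 1.43-fold. Of 50 cytosolic ribosomal protein genes 4 were higher and 16 lower; with library totals alone as the scale 10 were higher and 9 lower, and with the 4 libraries fitted alone 26 were lower. The greatest gains, besides EP300 and DHRS2, were in the mitochondrially encoded genes MT-CO3, MT-CO2 and MT-ATP6, 1.73-fold, 1.60-fold and 1.57-fold higher, and in TUBB4B, a tubulin, 2.19-fold higher. Mitochondrially encoded genes took 2.10% and 1.88% of WT counts and 2.85% and 2.86% of VPRP non-target counts. Their reads can change with RNA quality as well as with transcription, and their part in the other changes was not tested.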

How the data were processed

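RNA was measured in 12 libraries; the 10 H3K27ac ChIP samples are not analysed here, 2 of them for lack of a clear group. The authors deposited raw read counts per gene ID, and the submitters' processing notes name STAR 2.5, HTSeq 0.6.1, DESeq2 1.24.0 and hg19 without saying which step used which. Library totals ranged from 14894558 to 17479523 counts, in which PCR copies are counted. Spread between the 2 libraries of a group, estimated over the 6 groups, enters each SE and p-value. The variance between libraries was 3.46 times that of counting alone in WT and 2.86 times in VPRP non-target. Counts were fitted with edgeR 4.0.16 (quasi-likelihood test, TMM factors, R 4.3.3) on all 12 libraries, as 6 group means, after filterByExpr with a minimum count of 10 and a total of 15. P-values were adjusted by Benjamini-Hochberg over 16694 genes, at 0.05. SE is the log2 fold change divided by the square root of F. The edgeR script was tested on simulated data with 200 genes changed. Of those tested, it recovered 65.7% at 1.5-fold, 76.1% at 2-fold and 95.5% at 4-fold. There were 20 false calls over 16007 genes. Far more genes were called in the real data, so that test does not give the error rate of these calls. Symbols matched 33626 of 48162 IDs, and 964 of 995 list symbols matched.

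Genes were named by a rule: EP300, RELA and HBB; the 10 highest genes with a symbol at 0 counts in WT; the 10 largest rises and 10 largest falls with at least 5 CPM in each group; the 6 largest gains and losses in CPM; and up to 4 members per list, 2 each way. Apart from RELA and HBB, each gene taken by the rule had to be called, with a symbol and libraries that did not overlap. Some genes were named outside this rule. FRG2C, the pseudogenes and the members shared between lists are among them. So are CD3E, PTPRC, LEUTX, ZSCAN4 and the MBD3L genes, given for their low counts. The comparison, the lists and the rule were chosen with earlier results of these data known. The replicate numbers do not pair the libraries. Alternatives are given in the closing section.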

Additional observations from a re-analysis of the deposited data

Results flagged for a closer look

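VPRP non-target and VPRP with the HBB guide were tested against each other for the named genes, and the 30 that passed an adjusted p of 0.05 and differed by at least 2-fold are given here as log2 differences, VPRP non-target minus VPRP with the HBB guide (HBB, the guide's target, is left out). EP300 differed by 1.64. Of the genes at 0 counts in WT, RFPL4A differed by 1.13, FRG2B by 1.21, PRR20G by 1.17, LINC01721 by 1.82, LINC01447 by 1.95 and GOLGA8M by 1.89, and ALPG was lower by a difference of -1.14. Of the largest rises, SERTAD1 differed by 1.13, GADD45B by 1.18, H1-2 by 1.30, H2BC5 by 1.19, HSPA2 by 1.58 and DHRS2 by 1.76. TSC22D3, the largest fall among genes at 5 CPM or more in both groups, differed by -1.24. Of list members, RPL10L differed by 4.92, S100A9 by 4.17, VGF by 2.19, TUBB3 by 2.04, H3C4 by 1.76, H1-3 by 1.67, SSX1 by 1.39, HOXD1 by 1.26 and DDIT3 by 1.06, and EVPL by -5.33, SYCP2 by -2.72, ACTA2 by -2.41, APOA1 by -1.54, NUPR1 by -1.51 and NLRC5 by -1.01. Such a difference can rest on few reads. For S100A9 there was 1 read over the libraries of VPRP with the HBB guide and 23 over those of VPRP non-target (SE 1.10). The guide and the level of EP300 reads differ together between these groups and cannot be told apart.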

How the results depend on the processing

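The number of genes called was 9972 and lay between 8715 and 10380 over the alternatives: RLE, upper-quartile or no scaling factors, no filter or 1 CPM in at least 2 libraries, DESeq2, the 4 libraries alone, a replicate block and each library left out. The fit with a replicate block gave 9843 calls, 5143 higher and 4700 lower; same-numbered libraries of WT and VPRP non-target correlated at -0.031, and the numbers are not said to mark pairs. Genes switched on from 0 counts were 157, and 404 with a minimum of 5 counts, 65 with 20 and 451 when WT may hold up to 3 counts; leaving out each library gave 223 to 325. Genes switched off were 0, and 1 with a minimum of 5 counts, 2 with up to 3 counts allowed, and 0 to 2 with a library left out. RELA changed sign with library totals alone, to 0.073 (adjusted p = 0.434), and passed in neither. Of 1979 values for 166 genes of the naming rule, list members included, 1922 kept their direction and side of the threshold, 56 no longer passed and 1 changed sign; those 56 were all in list members. Of 936 list counts, 72 moved by over 1.5 times, mostly counts of few genes. Groups of 2 libraries limit every comparison, and genes under 1 CPM rest on few reads.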
